A study of Homo sapiens with 15 samples.

Results

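The BCL2 family of apoptosis regulators was followed here through 10 genes of the deposited RNA-seq count table, chosen by symbol from the 23368 genes it lists: the pro-survival genes BCL2, BCL2L1 and MCL1, the effector genes BAX and BAK1, and the BH3-only genes BCL2L11, BBC3, PMAIP1, BID and BIK. All 10 were found, and 9 of them passed the filter on low values used for testing, which asks for an average normalized count of 10 or more in every clone. BIK did not pass. The RNA came from 3 single-cell clones of brain metastatic human breast cancer cells, all of which hold an RBM47 transgene behind a promoter that responds to doxycycline. WT6 and WT10 cells carry wild type RBM47, and MUT3 cells carry the frameshift mutant RBM47-I281fs. Doxycycline was given at 0, 1, 2.5, 5 and 25 ng/ml, and each condition has a single library without a replicate. The tests therefore rest on a line over the 5 doses of each clone, in a single fit of all 15 libraries. The sample labels name MDA231 cells for all 15 libraries, whereas the study's methods derive WT6 from CN34-BrM2 and WT10 and MUT3 from the brain metastatic derivative of MDA231. KRT7 mRNA, a keratin of simple epithelia, had normalized counts of 41311 to 72760.5 in the WT6 libraries, 99.3 to 176 in WT10 and at most 25.1 in MUT3. A difference between WT6 and the other clones therefore cannot be told apart from a difference between parental lines, and each genotype is represented by 1 or 2 clones.

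Proteins of the BCL2 family decide whether the outer mitochondrial membrane stays intact. The effectors BAX and BAK1 form pores in it and release cytochrome c, the pro-survival proteins bind and restrain them, and the BH3-only proteins either block the pro-survival proteins or activate the effectors directly. The helix that makes these contacts is the BH3 domain, whose core is a leucine, any 3 residues, a glycine or another small residue, and an aspartate. Several BH3-only genes are switched on by transcription factors under stress, while proteins such as MCL1 are also controlled by rapid turnover, which transcript counts do not show.

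The codons of the BH3 core are shown for 6 of the members, because the core is what the family shares in sequence. MCL1, BAX, BAK1 and BIK are not shown. Each line gives 30 bases of coding sequence, 5′ to 3′ on the coding strand, read from the hg19 genome with GENCODE release 44 models, and the 6 codons of the core are in capitals.
BCL2: ctgaccCTCCGCCAGGCCGGCGACgacttc
BCL2L1: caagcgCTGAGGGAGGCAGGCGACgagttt
BCL2L11: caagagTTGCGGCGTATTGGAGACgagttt
BBC3: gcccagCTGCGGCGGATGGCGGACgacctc
PMAIP1: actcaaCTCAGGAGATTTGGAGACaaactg
BID: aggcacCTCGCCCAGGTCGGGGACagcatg

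The BCL2 stretch lies at chr18:60985588-60985617 on the minus strand, in exon 2 of 3. That of BCL2L1 lies at chr20:30309731-30309760 on the minus strand, in exon 2 of 3. BCL2L11 holds it at chr2:111907674-111907703 on the plus strand, in exon 3 of 4, and BBC3 at chr19:47729842-47729871 on the minus strand, in exon 3 of 4. PMAIP1 holds it at chr18:57569899-57569928 on the plus strand, in the last of its 2 exons, and BID at chr22:18222187-18222216 on the minus strand, in exon 4 of 6. BBC3 has an alanine codon where the others have glycine. The pattern occurred once in the coding sequence of each of the 10 members, and 24.6% of 19894 coding transcripts hold it, so that the letters alone do not mark the family. The deposited counts are per gene: they do not separate the spliced forms of BCL2L1, MCL1 or BCL2L11, some of which act in opposite directions.

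The libraries held 14955172 to 44771871 reads on genes. A normalized count is a gene's reads scaled by the size factor of its library, and 3 reads, taken as the limit of detection, corresponded to 1.19 to 4.09 normalized counts. RBM47 counts, in which transgene and endogenous gene are not separated, were 258, 3137, 8094, 3966 and 10425 with rising dose in WT6. In WT10 they were 168, 827, 2822, 8134 and 19877, and in MUT3 73.8, 92.1, 336, 949 and 22084. RBM47 thus did not follow dose in WT6, where it was lower at 5 than at 2.5 ng/ml, and MUT3 had less of it than the wild type clones at every dose below 25 ng/ml. Of the 5 genes listed as high in the labelled line, VIM ran from 50755 to 104639 over all libraries, CD44 from 7100.3 to 22521, KRT8 from 8159 to 31009.6 and KRT18 from 8663 to 24036, whereas KRT7, with medians of 45816, 125 and 20.2 in WT6, WT10 and MUT3, was high in WT6 alone. Of the 3 receptor genes listed as low, ESR1 had medians of 0.853, 7.72 and 8.88 and PGR of 5.97, 19.5 and 2.76 in WT6, WT10 and MUT3, but ERBB2 was at 1018 to 1584. Of 8 markers of blood, endothelium, muscle, red cells and liver, 5, 6 and 4 had a read in WT6, WT10 and MUT3. The macrophage marker CD68, also found in lysosomes of other cells, made up most of their sum, and the other 7 summed to between 0.964 and 57.3 in each library. The WT6 libraries at 5 and 25 ng/ml stood apart: when genes were split by transcript length into 5 bins of equal size, the median log2 change from untreated cells was 0.599 and 0.577 in the bin of shortest transcripts and -0.415 and -0.455 in that of the longest. Each WT6 slope of a member is therefore also given, in what follows, after removal of its library's trends with transcript length and GC content.

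The change with dose was measured as the slope of log2(normalized count + 1) on log2(dose + 1) and tested with limma across 12644 genes, with Benjamini-Hochberg adjustment over all of them. Of the 9 members tested, 5 changed with dose in WT6, 4 in WT10 and 0 in MUT3. The shares over all genes tested were 57.5% in WT6, 20.0% in WT10 and 0.00% in MUT3. The WT6 share of members is near the background, and with 9 genes the WT10 count says nothing particular about the family. In WT6, BCL2, BCL2L1 and MCL1 fell, and BBC3 and BID rose. In WT10, BCL2 fell, and BCL2L11, PMAIP1 and BID rose. BCL2 was called lower and BID higher in both wild type clones, as were 7.34% and 7.02% of all genes. In MUT3, 295 of all genes had an unadjusted p under 0.05 and none of the 9 members did, while edgeR and DESeq2 called 1 and 8 genes there and no member. The adjusted threshold was strict in MUT3: RBM47 itself had an adjusted p of 0.0517 there. In WT6 the count of members was 0 without the libraries at 5 and 25 ng/ml, which leaves 3 doses, and 7 with length and GC trends removed (58.5% of all genes). Over all genes the share without those 2 libraries was 1.41%. In WT10 it was 0 without the 25 ng/ml library (0.0475% of all genes), 2 without the 1 ng/ml library (13.2%) and 7 without the WT6 library at 5 ng/ml (32.8%), which enters through the shared estimate of spread. In these WT10 fits the member counts moved with the share over all genes. Removal of length and GC trends also gave 7 in WT10 (35.7% of all genes).

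**Figure D1:**
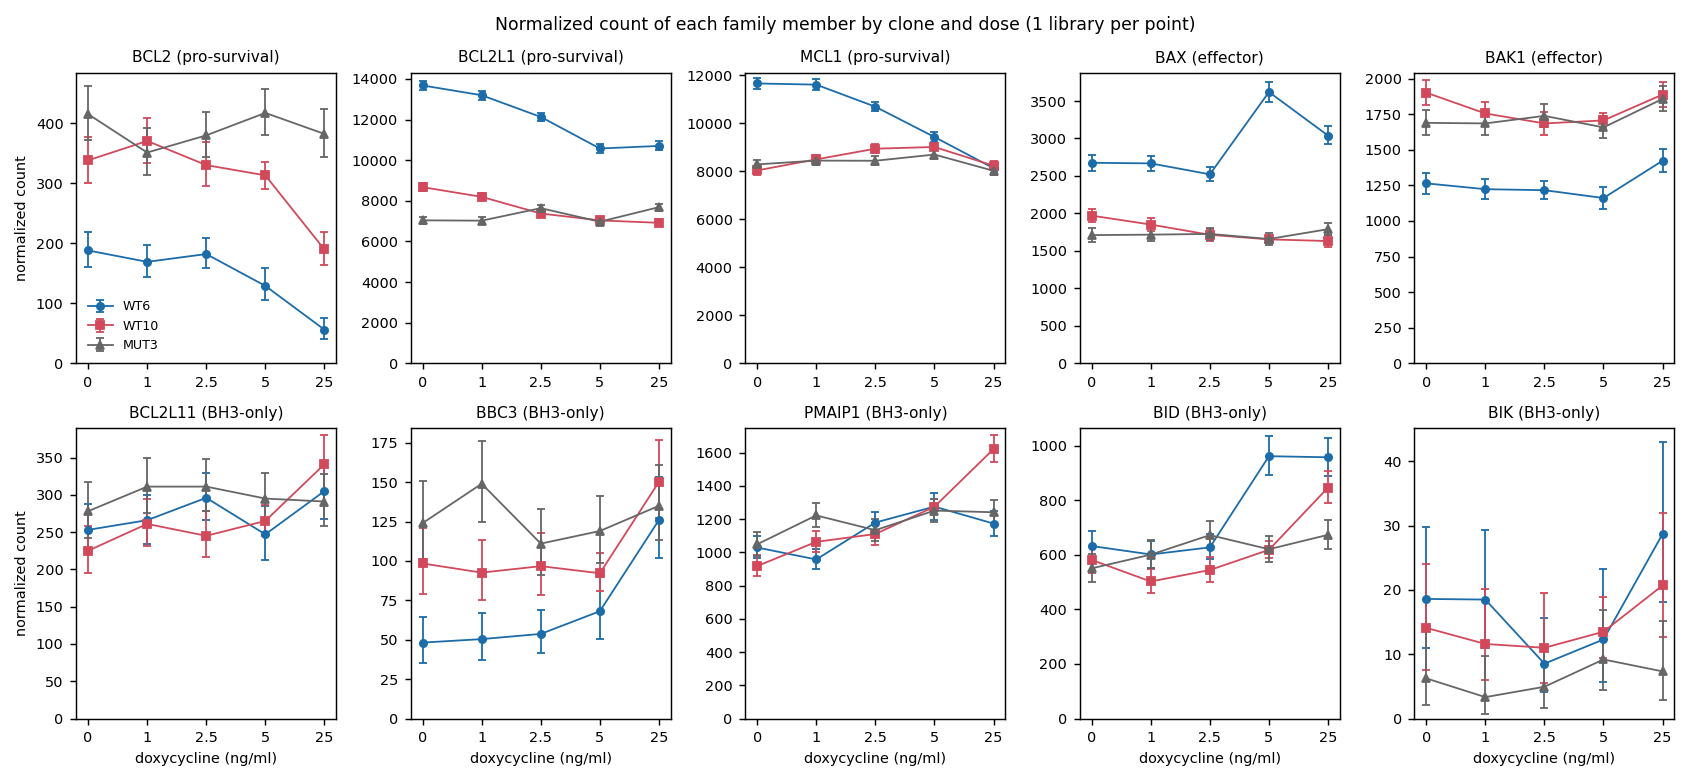
Normalized count (vertical axes, from 0) of each member against doxycycline dose in ng/ml (evenly spaced categories) in WT6, WT10 and MUT3, with 1 library per point and bars for the 95% counting interval. BCL2 ends at 56.1 in WT6 and 189.6 in WT10 but at 382 in MUT3. In WT10 the 25 ng/ml points of BBC3, BID and PMAIP1 lie above the lower doses, as does that of BBC3 in WT6.

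BCL2, the founding pro-survival member, was the least abundant of the 3 pro-survival transcripts. Its normalized count in WT6 was 188 untreated, 169 at 1 ng/ml, 182 at 2.5, 129 at 5 and 56.1 at 25. The first 3 doses of WT6 were close together and the fall came at the top 2, although RBM47 was lower at 5 than at 2.5 ng/ml. In WT10 the counts were 338, 370.3, 330.1, 313 and 189.6 in the same order of doses, and only the 25 ng/ml library lay apart. In MUT3 they were 415, 351, 379.6, 417 and 382, with no order by dose. The slope was -0.34 ± 0.07 (SE) in WT6 (limma adjusted p = 0.000837) and -0.18 ± 0.05 in WT10 (adjusted p = 0.0203), which put the fitted level at 25 ng/ml at 0.335 and 0.555 of the untreated level. The MUT3 slope was 0.00, with a 95% interval of -0.10 to 0.10. The mean wild type slope lay below the MUT3 slope by 0.26 log2 units (-0.26 ± 0.06, adjusted p = 0.0105), whereas WT10 alone did not differ from MUT3 past the threshold (-0.18 ± 0.07, adjusted p = 0.134). BCL2 has a long transcript, of 6881 bases, in the bin of longest transcripts, whose median change was -0.455 in WT6 at 25 ng/ml. BCL2 changed by -1.73 in the same library, and its slope with length and GC trends removed was -0.24 in WT6 and -0.16 in WT10. The calls rested on the highest dose: the WT6 slope was -0.17 and no longer called without the WT6 library at 25 ng/ml, and the WT10 slope -0.05 without that of WT10. The WT10 call was also lost, with a slope of -0.17, without the WT10 library at 1 ng/ml. The difference from MUT3 was not called without any one of the 3 libraries at 25 ng/ml, at -0.17 without that of WT6, -0.19 without WT10 and -0.27 without MUT3.

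BCL2L1, which encodes BCL-XL and a shorter pro-apoptotic form, was the most abundant member per length in every clone. In WT6 its counts were 13683, 13199.7, 12132, 10578 and 10705 with rising dose. In WT10 they were 8675, 8197, 7377, 7038 and 6919, lower at each dose than at the one before. MUT3 had 7041, 7025, 7641, 6973 and 7690.3, so that its top dose was its highest value. The slope was -0.08 ± 0.03 in WT6 (adjusted p = 0.0108) and -0.07 ± 0.02 in WT10, where it missed the threshold (adjusted p = 0.0537). It was 0.02 in MUT3, with an interval of -0.03 to 0.08. The mean wild type slope was below that of MUT3 (-0.10 ± 0.03, adjusted p = 0.0255). A slope of this size means a fitted level at 25 ng/ml of 0.760 of untreated in WT6 and 0.791 in WT10. Removal of length and GC trends took the WT6 slope of BCL2L1 to -0.12. The WT6 call was lost at a slope of -0.08 without the untreated WT6 library. The WT10 slope stayed at -0.07 but passed the threshold without the WT6 library at 2.5, 5 or 25 ng/ml. The difference from MUT3 was not called without the MUT3 library at 0, 1 or 25 ng/ml, with values of -0.10, -0.10 and -0.09. The antisense gene ABALON overlaps BCL2L1 on the opposite strand, and whether the libraries keep the strand is not given in the sources used here.

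MCL1, a pro-survival member with a short-lived protein, differed between the wild type clones. WT6 counts were 11658, 11609, 10689, 9429 and 8130.4, a stepwise fall from 2.5 ng/ml on. WT10 counts were 8036, 8496, 8941, 9012 and 8234, and MUT3 counts 8287, 8445, 8438, 8697 and 8020.3, and neither clone had a slope that was called. The slope was -0.12 ± 0.02 in WT6 (adjusted p = 0.000634), 0.01 in WT10 (95% interval -0.04 to 0.06) and -0.01 in MUT3 (-0.06 to 0.04). The WT6 slope was below the WT10 slope by 0.13 (-0.13 ± 0.03, adjusted p = 0.0273), and MCL1 was the 1 member of 9 with a difference between the wild type clones, against 14.4% of all genes. Length and GC trends removed, the WT6 slope was -0.07 and the difference -0.08, which was still called. The difference was not called without the WT6 library at 1 ng/ml (-0.12) or 25 ng/ml (-0.12) or the WT10 library at 0 (-0.10) or 1 ng/ml (-0.13). The WT6 clone began from a higher level, and at 25 ng/ml its count of 8130.4 lay within the WT10 range of 8036 to 9012. ADAMTSL4-AS1 overlaps MCL1 on the same strand, so reads in the shared bases could have been set aside as ambiguous. Of 4 genes for enzymes that add ubiquitin to MCL1 or remove it (HUWE1, FBXW7, BTRC and USP9X), 3 fell in WT6, where 28.3% of all genes did, and 0 changed in WT10 or MUT3. After removal of length and GC trends 1 of them rose and 1 fell in WT6, where 29.2% of all genes rose and 29.3% fell.

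**Figure D2:**
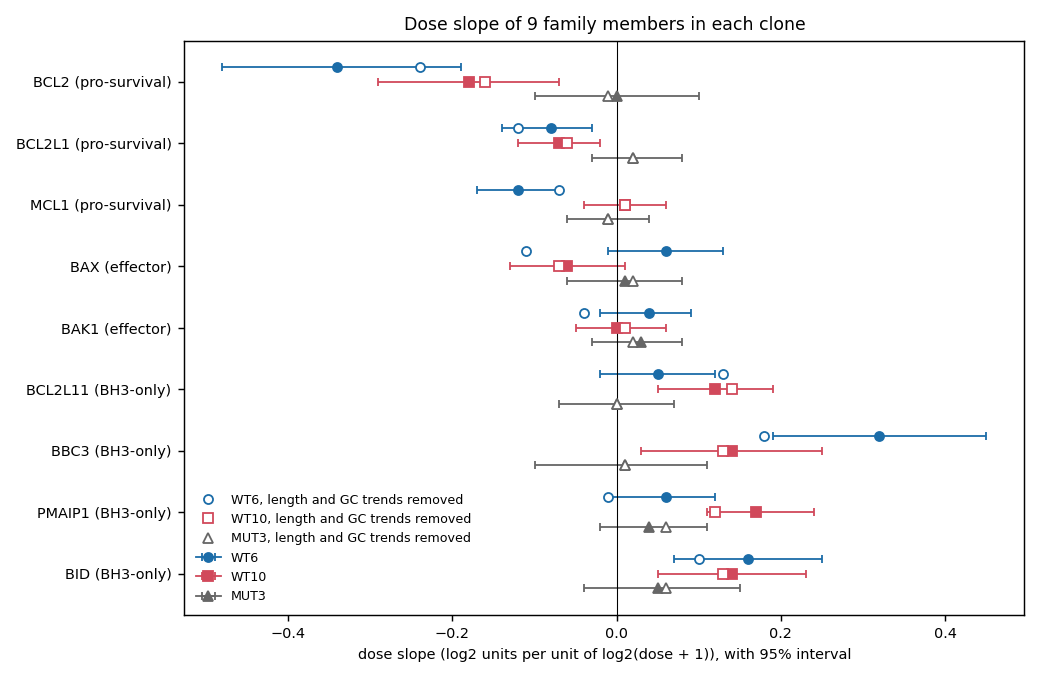
Dose slope of the 9 members tested (log2 units per unit of log2(dose + 1)) in each clone, as filled points with 95% intervals from limma, and open points for the slope with length and GC trends removed. BCL2 is at -0.34 in WT6 and -0.18 in WT10, the 9 MUT3 intervals all include 0, and BAX in WT6 moves from 0.06 to -0.11 between the filled and the open point.

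No slope of an effector was called with all libraries. BAX, which is held in the cytosol until activated, had counts of 2676, 2668, 2522, 3620.0 and 3039 in WT6, with the library at 5 ng/ml highest. In WT10 they were 1971, 1852, 1715, 1654 and 1632, lower at each step. MUT3 counts of 1711, 1717, 1727, 1659 and 1790.3 stayed within a narrow range. The slopes of BAX were 0.06 ± 0.03 in WT6 (adjusted p = 0.13), -0.06 ± 0.03 in WT10 (adjusted p = 0.249) and 0.01 ± 0.03 in MUT3. BAX has a short transcript of 795 bases, in the bin of shortest transcripts, whose median change was 0.577 in WT6 at 25 ng/ml, while BAX itself changed by 0.18. Once length and GC trends were removed its slope was -0.11 in WT6 and -0.07 in WT10, both called lower, so that no direction can be given for BAX in WT6. The WT10 slope of -0.06 was also called without the WT6 library at 5 ng/ml. Without that library the WT6 slope exceeded the WT10 slope by 0.10, which was then called.

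BAK1 counts were 1264, 1223, 1216, 1161 and 1423 in WT6, 1901, 1755, 1685, 1706 and 1888 in WT10, and 1689, 1685, 1738, 1657 and 1857 in MUT3. Every clone had its lowest value at 2.5 or 5 ng/ml, and the values at 25 ng/ml were near or above the untreated ones. The slopes of 0.04, 0.00 and 0.03 were not called, and their 95% intervals together ran from -0.05 to 0.09. With its length and GC trends removed, the WT6 slope was -0.04 and not called. No comparison of slopes between clones was called for BAK1 with all libraries or with any left out. GGNBP1 overlaps BAK1 on the opposite strand.

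The BH3-only genes moved upward where they moved. BBC3, which encodes PUMA, a BH3-only protein that binds all pro-survival proteins, had counts of 48.2, 50.4, 53.7, 68.1 and 126 in WT6, higher at each step. In WT10 they were 98.4, 92.6, 96.7, 92.2 and 150.2, with 4 libraries together and the one at 25 ng/ml above them. In MUT3 they were 124, 149, 111, 119 and 135, without order. These counts rest on 44 to 232 reads per library, the fewest of any member tested. The slope was 0.32 ± 0.06 in WT6 (adjusted p = 0.000515), or a fitted 2.86-fold level at 25 ng/ml, and 0.14 ± 0.05 in WT10 (adjusted p = 0.0731). In MUT3 it was 0.01, with an interval of -0.10 to 0.11. The mean wild type slope exceeded that of MUT3 by 0.23 ± 0.06 (adjusted p = 0.0213). Without the WT6 library at 25 ng/ml the WT6 slope was 0.18 and not called. The difference from MUT3 was then 0.16, and it was 0.14 without the WT10 library at 25 ng/ml, 0.30 without that of MUT3 and 0.23 without the untreated MUT3 library, and was called in none of these. The WT10 slope passed the threshold at 0.20 without the untreated WT10 library and at 0.14 without the WT6 library at 5 ng/ml. Without the WT10 library at 25 ng/ml the WT6 slope exceeded the WT10 slope by 0.35, and that difference was called. The slopes without length and GC trends were 0.18 in WT6 and 0.13 in WT10. MIR3191 overlaps BBC3 on the opposite strand.

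BID, which is cut by caspase 8 and links death receptors to mitochondria, had WT6 counts of 632, 601, 627, 961 and 957. The step lay between 2.5 and 5 ng/ml, where the length trend of the WT6 libraries also begins and the RBM47 count went from 8094 to 3966. WT10 counts were 581, 502, 544, 618 and 846, so that the highest value was at 25 ng/ml. MUT3 counts were 550.2, 600.4, 672, 620.2 and 673. The slope was 0.16 ± 0.04 in WT6 (adjusted p = 0.00533) and 0.14 ± 0.04 in WT10 (adjusted p = 0.0337). MUT3 had 0.05, with an interval of -0.04 to 0.15, and the mean wild type slope did not exceed it past the threshold (0.10 ± 0.05, adjusted p = 0.189, 95% interval -0.02 to 0.21). Corrected for length and GC trends, the slopes were 0.10 and 0.13 in WT6 and WT10. Without the WT6 libraries at 5 and 25 ng/ml the WT6 slope was -0.01. The WT10 slope was 0.04 without the WT10 library at 25 ng/ml and 0.12 without that at 1 ng/ml, and not called in either.

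PMAIP1, which encodes NOXA, a partner of MCL1, had WT10 counts of 917, 1063, 1110.0, 1274 and 1621, higher at each dose. WT6 counts were 1029, 957, 1179, 1275 and 1173. MUT3 counts were 1048, 1222, 1133, 1251 and 1241, with the untreated library lowest. The slope was 0.17 ± 0.03 in WT10 (adjusted p = 0.00117), a fitted 1.76-fold level at 25 ng/ml. It was 0.06 ± 0.03 in WT6 (adjusted p = 0.108) and 0.04 ± 0.03 in MUT3. The WT10 slope exceeded the MUT3 slope by 0.13 ± 0.04 (adjusted p = 0.0792) and the WT6 slope fell short of the WT10 slope by 0.11 (-0.11 ± 0.04, adjusted p = 0.0729), and neither difference was called with all libraries. Both were called without the WT6 library at 5 ng/ml, at 0.13 and -0.12, and the first also without that at 25 ng/ml, at 0.13. Without the WT6 library at 25 ng/ml the WT6 slope was 0.14 and the mean wild type slope exceeded that of MUT3 by 0.11, and both were called. Without the WT10 library at 25 ng/ml the WT10 slope stayed at 0.17 but was not called. The PMAIP1 slope was 0.12 in WT10 and -0.01 in WT6 once length and GC trends were removed. In that fit WT10 minus MUT3 was 0.06 and the mean wild type slope minus MUT3 was 0.00, and neither was called. WT6 minus WT10 was -0.13 there and was called.

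BCL2L11, which encodes BIM, a strong activator of the effectors, had WT10 counts of 225, 261, 245, 265 and 341. WT6 counts were 253, 266, 296, 247 and 305, and MUT3 counts 278, 311, 311, 295 and 291. The 3 clones overlapped, and the WT10 library at 25 ng/ml was the highest of all 15. The slope was 0.12 ± 0.03 in WT10 (adjusted p = 0.0211), 0.05 ± 0.03 in WT6 (adjusted p = 0.248) and 0.00 in MUT3 (95% interval -0.07 to 0.07). BCL2L11 has a transcript of 5098 bases, in the next to longest bin, whose median change was -0.293 in WT6 at 25 ng/ml, while BCL2L11 changed by 0.27. With length and GC trends removed the WT6 slope was 0.13 and called higher, close to the 0.14 of WT10. The WT10 call was lost without the WT10 library at 25 ng/ml, at 0.07, or the untreated one, at 0.12. MIR4435-2HG overlaps BCL2L11 on the opposite strand.

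BIK was near the limit of detection. Its counts were 18.6, 18.5, 8.53, 12.3 and 28.7 in WT6, 14.1, 11.6, 11.0, 13.5 and 20.7 in WT10, and 6.25, 3.33, 4.94, 9.19 and 7.33 in MUT3. These rest on 3 to 34 reads per library. The highest value of WT6 and of WT10 was at 25 ng/ml, but no change with dose was tested. The WT10 and MUT3 ranges did not overlap, as was so for 37.1% of all genes tested. The lowest WT10 count, 11.0, had a 95% counting interval of 5.48 to 19.6. That of the highest MUT3 count, 9.19, was 4.41 to 16.9, so that the intervals overlapped.

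**Figure D3:**
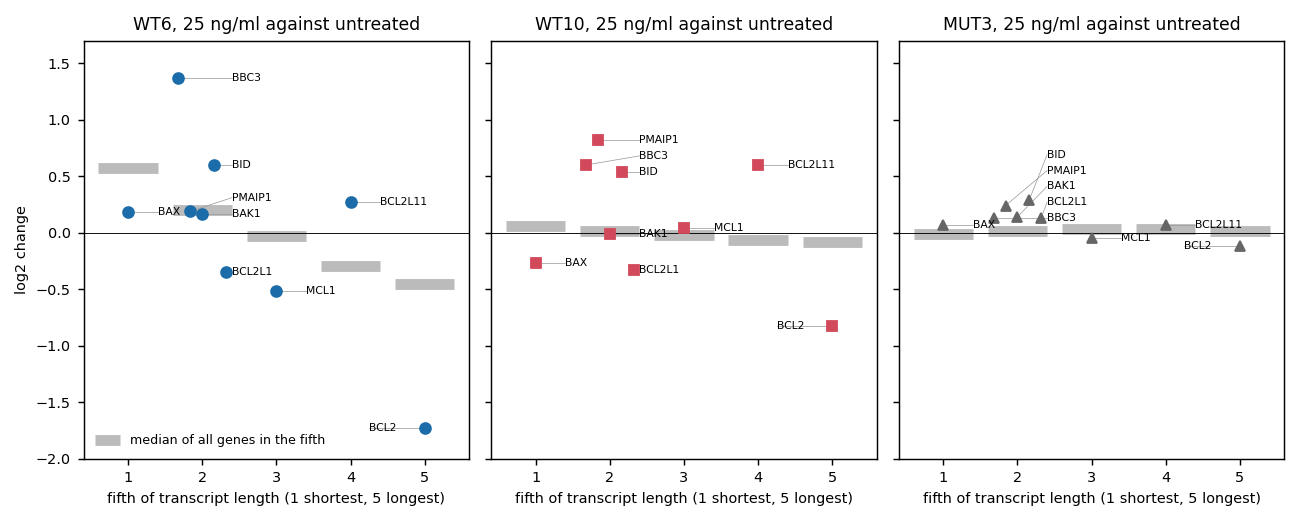
Log2 change at 25 ng/ml against untreated cells (vertical axis) for the 9 members tested, placed by bin of transcript length from 1 (shortest) to 5 (longest) on the horizontal axis, with a panel per clone and grey bars for the median of all genes in a bin. In WT6 the bars run from 0.577 to -0.455, with BBC3 at 1.37 and BCL2 at -1.73, while in MUT3 the bars run from -0.012 to 0.032.

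Across clones, 3 of 9 members had a mean wild type slope that differed from the MUT3 slope: BCL2 and BCL2L1 were lower and BBC3 higher. Over all genes the share was 24.6%. Between WT10 and MUT3, the clones of one parental line by the study's methods, 0 of 9 differed with limma, where 5.62% of all genes did. Of the 9 members, 4 (BCL2, BCL2L1, BCL2L11 and PMAIP1) had an unadjusted p under 0.05 in that comparison, as did 22.3% of all genes, and DESeq2 called PMAIP1 while edgeR called none. Without WT6 at 5 and 25 ng/ml the count was 4, those genes being the ones called, and the share of all genes was 24.1%. It was 2 without WT6 at 5 ng/ml alone (BCL2L1 and PMAIP1, with 17.9% of all genes) and 1 without WT6 at 25 ng/ml (PMAIP1, with 8.48%). After removal of length and GC trends it was 3 (18.6% of all genes), with BCL2L1 and BAX lower and BCL2L11 higher. The count for the mean wild type slope was 5 after that removal (35.9% of all genes), with BAX lower and BCL2L11 higher in addition. It was 1 without WT6 at 5 and 25 ng/ml (12.7% of all genes), with BCL2L1 called, 0 without the MUT3 library at 25 ng/ml (0.0237%), 1 without the WT10 library at 25 ng/ml (8.42%) and 1 without the untreated MUT3 library (9.76%). Between WT6 and WT10, MCL1 was the one difference, and removal of length and GC trends gave 2 (15.1% of all genes), MCL1 and PMAIP1, both lower in WT6.

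Levels per length gave the order of the family. Normalized counts were divided by the length of all exons of the gene in kb. In WT6, BCL2L1 stood first at 2873 ± 336 per kb (SD over the 5 doses), followed by MCL1 at 1656 ± 243, BAX at 1123 ± 171, BAK1 at 568 ± 45.0, PMAIP1 at 514 ± 58.4 and BID at 171 ± 42.0. The SD includes the change with dose. BCL2L11 at 40.5 ± 3.86, BBC3 at 21.7 ± 10.2, BIK at 18.2 ± 8.05 and BCL2 at 11.5 ± 4.33 were the low members. In WT6 the ranges of MCL1 and BAX overlapped, as did those of BAK1 and PMAIP1 and of each neighbouring pair from BCL2L11 down. In WT10 and MUT3 the order was BCL2L1, MCL1, BAK1, BAX, PMAIP1, BID, BCL2L11, BBC3, BCL2 and BIK. BAK1 and BAX stood in the opposite order to WT6, with 808 ± 45.8 and 682 ± 55.5 per kb in WT10 and 779.9 ± 35.9 and 665 ± 18.1 in MUT3, and their ranges overlapped in WT10 but not in MUT3. The order depends on the length used: per kb of the longest transcript BAX stood above BAK1 in every clone, at 2139 and 568 in WT6, 1299.6 and 808 in WT10 and 1267 and 779.9 in MUT3. On that scale BBC3 also stood above BCL2L11 in WT10 and MUT3, and BCL2 above BIK in WT6. BCL2L1 had 1821 ± 182 and 1733 ± 85.5 per kb in WT10 and MUT3, and BCL2 24.4 ± 5.51 and 30.8 ± 2.20. In bulk RNA a lower level in a library cannot be told apart from fewer cells that express the gene.

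**Figure D4:**
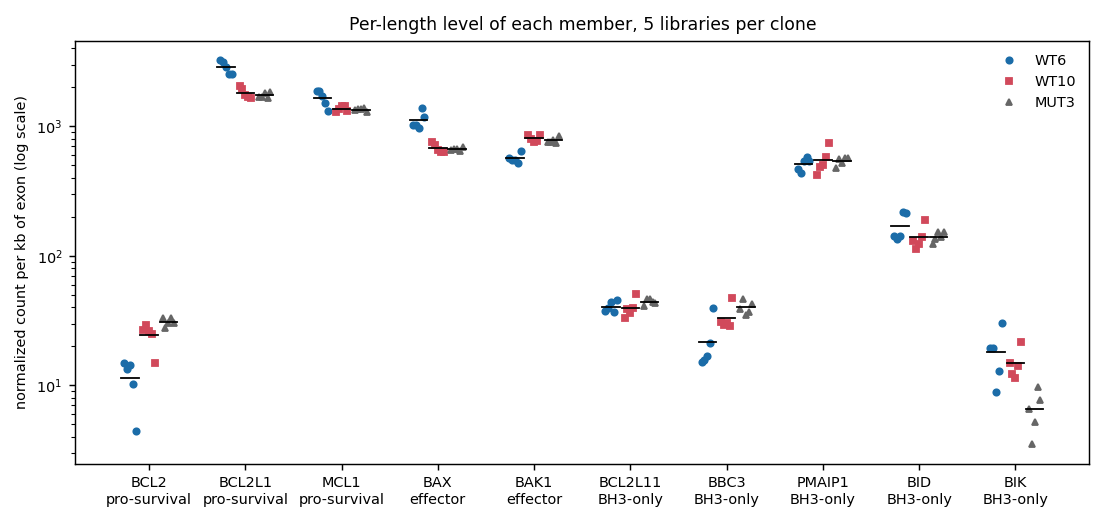
Normalized count per kb of exon (log axis) of each member in WT6, WT10 and MUT3, with 1 point per library and black lines for the mean of 5 libraries. BCL2L1 is highest in each clone at means of 2873, 1821 and 1733, and no library of BCL2, BBC3, BCL2L11 or BIK exceeds 50.6.

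The fitted untreated levels differed between the clones for several members. WT6 cells had a higher level than the mean of the other clones for BCL2L1 (0.81 ± 0.08 log2 units, adjusted p = 3.26e-07), MCL1 (0.51 ± 0.07, adjusted p = 2.11e-05) and BAX (0.56 ± 0.11, adjusted p = 0.000258). They had a lower level of BBC3 (-1.33 ± 0.20, adjusted p = 3.71e-05), BCL2 (-0.85 ± 0.17, adjusted p = 0.000409) and BAK1 (-0.53 ± 0.09, adjusted p = 7.02e-05). The WT6 ranges of BCL2L1, BAX, BCL2 and BAK1 over all doses did not overlap those of WT10, as was so for 44.7% of all genes. The WT10 and MUT3 ranges overlapped for each of the 9 members tested, whereas 37.1% of all genes had ranges apart. With 6 of 9 members called, the share was close to the 64.3% of all genes that differed. The BCL2 difference was -0.56 and not called without the untreated WT6 library. WT10 and MUT3 differed in 3 of 9 members, against 28.2% of all genes: BCL2L1 was higher in WT10 (0.26 ± 0.09, adjusted p = 0.0422), and BCL2L11 (-0.40 ± 0.12, adjusted p = 0.0241) and BBC3 (-0.56 ± 0.19, adjusted p = 0.0442) were lower. The measured untreated counts of BCL2L1, BCL2L11 and BBC3 in WT10 were 1.23, 0.811 and 0.795 of those in MUT3. The fitted ratios were 1.20, 0.758 and 0.680. All 3 differences in fitted level were lost in some of the fits that left out 1 library. The number called in those fits ran from 0 (without MUT3 at 1 or at 25 ng/ml, with 21.0% and 20.5% of all genes) to 4 (without WT6 at 5 ng/ml, with 40.8%). BCL2L1 was not called without WT10 at 0 (0.21) or 1 ng/ml (0.24), MUT3 at 0 (0.27), 1 (0.25), 5 (0.25) or 25 ng/ml (0.25), or WT6 at 0 or 1 ng/ml (0.26 in both). BCL2L11 was not called without WT10 at 0 (-0.41), 2.5 (-0.37) or 25 ng/ml (-0.35) or MUT3 at 1 (-0.36) or 25 ng/ml (-0.37). BBC3 was not called without WT10 at 1, 2.5, 5 or 25 ng/ml, MUT3 at 0, 1, 5 or 25 ng/ml or WT6 at 1 ng/ml, with values from -0.63 (without MUT3 at 25 ng/ml) to -0.37 (without WT10 at 25 ng/ml).

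The per-kb levels of the 10 members were also summed by role. Among the genes left out was BAD, also BH3-only, with median counts of 1546, 1233 and 1401 in WT6, WT10 and MUT3. Its exons cover 1708 bases, against 2186 for PMAIP1, whose medians were 1173, 1110.0 and 1222. The pro-survival gene BCL2L2 and the effector BOK were also left out, so the sums and ratios hold for the 10 members only. In WT6 the 3 pro-survival genes summed to 5149 per kb untreated and 3862 at 25 ng/ml, and the 5 BH3-only genes to 686 and 868. The ratio of pro-survival to BH3-only transcripts was 7.50, 7.75, 6.16, 4.64 and 4.45 with rising dose in WT6. In WT10 it was 5.37, 4.93, 4.54, 3.91 and 2.84, lower at each step, with sums of 3385 and 2987 for pro-survival and 630.2 and 1052 for BH3-only genes at the ends. In MUT3 it was 4.41, 3.87, 4.24, 3.85 and 3.87. PMAIP1 supplied 61.8% to 72.4% of the BH3-only sum in every library and BCL2 at most 1.08% of the pro-survival sum, so that the ratio is mainly one of BCL2L1 and MCL1 to PMAIP1 and BID. The ratio of pro-survival to effector transcripts was 3.21 untreated and 2.12 at 25 ng/ml in WT6, with its step at 5 ng/ml, where the BAX count was highest and the length trend begins, and between 2.01 and 2.26 in every library of WT10 and MUT3. These ratios are descriptions of transcripts and were not tested, and they were not corrected for the length trend, under whose removal BAX changes direction in WT6.

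**Figure D5:**
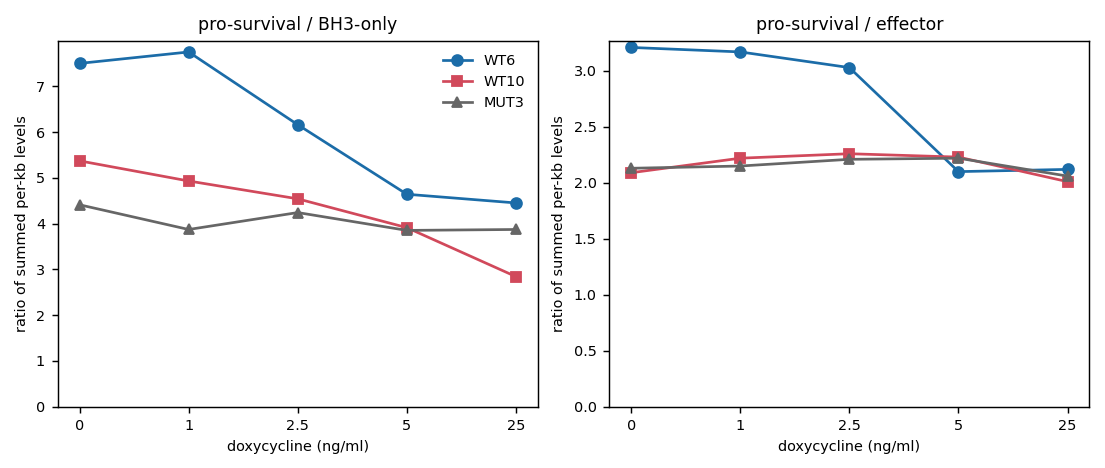
Ratio of summed per-kb levels of the 10 members, pro-survival to BH3-only genes (left) and pro-survival to effector genes (right), against doxycycline in ng/ml (evenly spaced categories) with 1 library per point. The left ratio goes from 7.50 to 4.45 in WT6, from 5.37 to 2.84 in WT10 and from 4.41 to 3.87 in MUT3.

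Other genes of the mitochondrial pathway were taken from fixed lists. Of 13 further BCL2 family genes, 9 were tested, and 5 rose and 0 fell in WT6, 3 rose and 0 fell in WT10 and 0 changed in MUT3. Over all genes 29.2% rose and 28.3% fell in WT6, and 10.2% rose and 9.83% fell in WT10. After removal of length and GC trends the counts were 4 risen and 2 fallen in WT6 and 3 risen and 1 fallen in WT10. In that fit 29.2% of all genes rose and 29.3% fell in WT6, and 16.6% rose and 19.0% fell in WT10. BMF, a BH3-only gene, rose in both wild type clones (0.32 ± 0.09, adjusted p = 0.0105 in WT6 and 0.26 ± 0.08, adjusted p = 0.0438 in WT10). Its normalized counts went from 7.67 to 31.1 and from 19.5 to 43.5 between 0 and 25 ng/ml, against 23.8 and 22.0 in MUT3. They rest on only 86, 174 and 93 reads over all doses of WT6, WT10 and MUT3. The mean wild type slope of BMF exceeded that of MUT3 (0.35 ± 0.12, adjusted p = 0.0396), but the difference of WT10 alone was not called (0.32 ± 0.13, adjusted p = 0.15). BCL2L13, a mitochondrial member, rose by slopes of 0.09 and 0.14 in WT6 and WT10, beside a slope of 0.04 in MUT3 that was not called. Its difference from MUT3 was called neither for the mean wild type slope (0.08 ± 0.04, limma adjusted p = 0.145) nor for WT10 (0.10 ± 0.04, adjusted p = 0.191). Of 9 genes for the caspase branch and the channels of the outer membrane (APAF1, CYCS, CASP9, DIABLO, HTRA2, XIAP, VDAC1, VDAC2 and VDAC3), 3 rose and 1 fell in WT6 and 1 rose in WT10. After removal of the trends 4 rose and 1 fell in WT6, and 1 rose and 1 fell in WT10. XIAP, the caspase inhibitor, was the one in WT10, with counts of 1193, 1362, 1546, 1799.6 and 2120.0 (slope 0.18 ± 0.03, adjusted p = 0.00142), and it was 1725 untreated and 1511 at 25 ng/ml in MUT3. Its WT6 slope was 0.03 and not called, but 0.15 with length and GC trends removed, beside 0.19 in WT10. The WT10 slope of XIAP exceeded that of MUT3 (0.22 ± 0.04, limma adjusted p = 0.013), a comparison in which 5.62% of all genes were called. The mean wild type slope also exceeded that of MUT3 (0.15 ± 0.04, adjusted p = 0.0156). WT6 was below WT10 (-0.15 ± 0.05, adjusted p = 0.0476), but by -0.03 with length and GC trends removed.

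Genes whose profile over the 15 libraries, after each clone's mean log2 level was taken out, was most like that of BCL2 were DIAPH2 (Pearson's r = 0.988), MPP6 (0.986) and DIAPH3 (0.983). For BID they were IMPA2 (0.961), PRSS3 (0.961) and LAPTM4A (0.952). These values describe likeness among libraries that share clones and, in WT6, the length trend.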

How the data were processed

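RNA-seq libraries were analysed from 3 clones at 5 doxycycline doses, 15 in all. The authors aligned reads to hg19 by STAR, made gene counts in HTSeq 0.5.4 and scaled them with DESeq, and the deposited table holds this normalized signal for 23368 genes and 5 tallies, left out of tests. The annotation used was not given in the sources used here. The tally of reads on no feature held 56.5% to 59.6% of reads and the ambiguous tally 0.527% to 0.617%. Whole reads were recovered from 100% of values (tolerance 0.001). Counting intervals do not cover variation between cultures, and limma's p-values measure spread around a straight dose line.

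limma 3.58.1 (R 4.3.3) was run on log2(normalized count + 1) with vooma weights, an intercept and a slope per clone (9 residual degrees of freedom) and genes averaging at least 10 in each clone. Alternatives were edgeR 4.0.16 and DESeq2 1.42.0 on recovered reads, other pseudocounts, filters, dose scales and left-out libraries, and splines with 4 degrees of freedom removing length and GC trends. Lengths came from GENCODE release 44, matched by symbol (19556 genes) or older symbol (1933). All 10 members were named, and from other lists genes called alike in both wild type clones or in WT10 against MUT3, at most 4 a list. Members and lists were chosen with earlier results of these data known. Lists of regulators and their targets are not reported here.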

Additional observations from a re-analysis of the deposited data

Results flagged for a closer look

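Differences in dose slope between clones passed the threshold of limma's adjusted p for 4 member comparisons. BCL2 had a mean wild type slope below that of MUT3 by 0.26 log2 units (-0.26), and BCL2L1 by 0.10 (-0.10). BBC3 had a mean wild type slope above that of MUT3 by 0.23. MCL1 had a WT6 slope below the WT10 slope by 0.13 (-0.13). None of these 4 was called without all libraries at 25 ng/ml, where the values were -0.12, -0.14, 0.14 and -0.19. The share of all genes called then was 0.00794% for the mean wild type slope minus MUT3 and 0.0159% for WT6 minus WT10, and the values of BCL2L1 and MCL1 were farther from 0 than with all libraries.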

How the results depend on the processing

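Members called were counted again under every alternative. With any doxycycline against none, and with the log2 RBM47 count in place of dose, 0 members were called for the slope in WT6, the slope in WT10, each of the 3 differences between slopes and the untreated level of WT10 against MUT3. The first of these settings called 0.00% of all genes in WT6 and in WT10, and the second 0.0158% and 0.704%. For each of the 3 differences between slopes both settings called 0.00%. For the untreated level of WT10 against MUT3 they called 1.58% and 14.5% of all genes. With length and GC trends removed the counts were 7 in WT10, 5 for the mean wild type slope minus MUT3, 3 for WT10 minus MUT3 and 2 for WT6 minus WT10, and the WT6 slope of BAX reversed to -0.11. Without all 25 ng/ml libraries they were 3 in WT6, 0 in WT10, 0 for the mean wild type slope minus MUT3, 0 for WT6 minus WT10 and 1 for the untreated level of WT10 against MUT3. The shares of all genes called then were 37.2% in WT6, 0.135% in WT10 and 23.0% for that untreated level. Without all 5 ng/ml libraries they were 2 for WT10 minus MUT3 (15.1% of all genes) and 3 for WT6 minus WT10 (24.3%). Without WT6 at 5 and 25 ng/ml, an alternative chosen after seeing the data, they were 0 in WT6 (1.41% of all genes) and 7 in WT10 (38.8%). They were then 1 for the mean wild type slope minus MUT3 (12.7%), 4 for WT10 minus MUT3 (24.1%) and 0 for WT6 minus WT10 (0.0318%). The untreated level of WT10 against MUT3 gave 5 (46.7%), and the WT6 slope of BID reversed to -0.01. With each clone fitted alone 3 were called in WT6 (31.2% of all genes). The rank of the dose gave 2 in WT10 (16.6% of all genes) and 1 for the untreated level of WT10 against MUT3 (24.2%). Linear dose gave 0 for WT6 minus WT10 (1.76%), and DESeq2 gave 1 for WT10 minus MUT3 (8.43%). With no filter on low values 1 was called for the untreated level of WT10 against MUT3 (19.8%). The cause of these shifts was not tested.

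With 1 library left out at a time the counts ran from 4 to 5 in WT6, 0 to 7 in WT10, 0 to 3 for the mean wild type slope minus MUT3, 0 to 2 for WT10 minus MUT3, 0 to 3 for WT6 minus WT10, 0 to 4 for the untreated level of WT10 against MUT3 and 5 to 6 for that of WT6. Shares of all genes in these fits ran from 36.7% to 62.4% in WT6 and 0.0475% to 32.8% in WT10. For the slope differences, in the same order, they ran from 0.0237% to 38.9%, 0.00% to 17.9% and 0.467% to 29.3%. For the untreated levels they ran from 16.7% to 40.8% and 55.7% to 70.9%. The MUT3 count was 0 under every alternative. No paired analysis was possible because every group has the single replicate number 1, so that clones share doses, which the slopes use, but no numbered replicates. Depth limits BIK most, with 3 to 34 reads per library, then BBC3, and counts per gene cannot show splice forms, protein levels or cell death.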
